A study of Saccharomyces cerevisiae with 5 samples.

Results

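The 10 genes described here encode factors that cut, polyadenylate and release RNA polymerase II transcripts in the budding yeast Saccharomyces cerevisiae. They were taken by gene symbol from the arrays' platform annotation: PCF11, RNA14, RNA15, CLP1, PAP1, CFT1 and YSH1 for cleavage and polyadenylation, and NRD1, NAB3 and SEN1 for the Nrd1-Nab3-Sen1 complex. All 10 were measured, of 5539 genes on the platform of 4 arrays, with 2 neighbouring spots each on that platform and 14 spots in all on the platform of the other array. Each of 5 two-colour arrays set RNA recovered with zz-tagged Yra1 (channel 1) against RNA recovered with zz-tagged Mex67 (channel 2). The arrays form 1 group, named replicates 1 to 5, with replicate 1 on a platform of its own. The labels give no strain background, medium or number of cultures, so p-values reflect array-to-array spread alone, and that spread may be technical.

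Yeast mRNA 3' ends are made when the cleavage and polyadenylation factor and cleavage factor IA cut the transcript and a poly(A) polymerase extends the cut end. The Nrd1-Nab3-Sen1 complex instead ends short noncoding transcripts and hands them to the nuclear exosome. These steps touch mRNA export, since the Pcf11 protein binds Yra1 and is known to recruit it to transcribed genes, while Mex67 is the export receptor that Yra1 helps to load. The values below concern the messages that encode these proteins and how unequally they were recovered in the Yra1 and Mex67 precipitates, not the proteins themselves.

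Each value is a log2 ratio of both channels relative to its array's median, averaged over the spots of a gene, so that 1 unit is a doubling. Neither the numerator channel nor the dyes are given in the labels. A lower or higher value thus describes the deposited ratio, and the precipitate richer in a message cannot be named. The arrays agreed poorly with each other, with Pearson r across genes from -0.06 to 0.13. Their deposited medians ran from -2.81 to 1.96 on the log2 scale, and replicate 2, at 1.96, had the widest interquartile range (1.68, against 0.97 to 1.10 on the others). Replicates 2 to 5 were tested with limma against 0, and replicate 1 is given beside them, since it is on a platform of its own.

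NAB3 and CLP1 had the lowest ratios among the 10 genes. NAB3, an RNA-binding termination factor gene, lay 3.98-fold below the array median on average and was below it on 5 of 5 arrays. CLP1, a cleavage factor IA gene, lay 2.13-fold below it, lower on the 4 arrays tested but above 0 on replicate 1. RNA14, another cleavage factor IA gene, was above 0 on 5 of 5 arrays by a small amount. The other 7 genes had arrays on both sides of 0. No gene passed the test over all genes after Benjamini-Hochberg adjustment (0 of 10 here, and 0 of 5539 in all, a background of 0%).

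At an unadjusted limma p under 0.05, 2 of the 10 genes were lower and 0 higher, where 5.42% of all genes passed in either direction, 3.99% of them lower and 1.43% higher. The same 2 had a mean beyond 1 log2 unit from 0, as did 8.14% of all genes. A mean below 0 was found for 8 of the 10, against 51.3% of all genes. Among those 8, CFT1, PAP1 and YSH1 lay close to 0, at -0.09, -0.04 and -0.03. PAP1 and YSH1 were above 0 when arrays were centred on their mean instead. The same sign on all 4 arrays was found for 3 of the 10, against 14.2% of all genes. Of these 3, 2 were below 0 throughout (7.13% of all genes) and 1 above (7.11%). The median of the 10 means was -0.22, against -0.02 over all genes, and the median SD over arrays was 0.99, against 0.77. That median of the 10 means was -0.061 with replicate 1 added and -0.053 once the local median was taken off, nearer to that of all genes. Both genes past the unadjusted threshold fell below it once the local median of the surrounding spots was removed, where 4.69% of all genes passed.

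**Figure D1:**
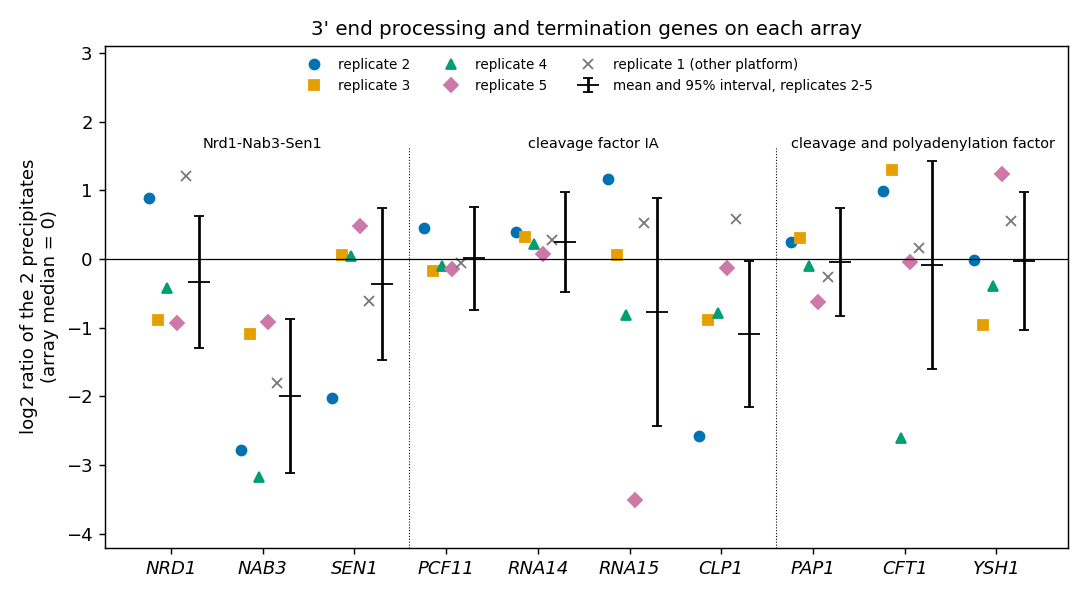
The log2 ratio of each gene (vertical axis, array median at 0) on each array, with the mean and 95% interval of limma over replicates 2 to 5 in black. NAB3 lies below 0 on every array, RNA14 above 0 on every array, and CLP1 below 0 on all but replicate 1.

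The 4 genes of cleavage factor IA, which binds the RNA near the poly(A) site, differed widely in how far their arrays spread. PCF11 (YDR228C) encodes the subunit that binds the polymerase's C-terminal domain. Its ratios were 0.46, -0.18, -0.11 and -0.14 on replicates 2 to 5 and -0.06 on replicate 1, so replicate 2 alone stood above the median and the other 4 lay together just under it. The mean was 0.01 ± 0.30 (SD, n = 4), with a limma adjusted p = 0.997. On replicates 2 and 5 both PCF11 spots and a spot of HEM1 beside them held 1 identical deposited value, which may not be the ratio of either gene.

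RNA14 (YMR061W) encodes the scaffold subunit that holds Rna15 in the complex. It had ratios of 0.39, 0.32, 0.22 and 0.07 on replicates 2 to 5 and 0.28 on replicate 1, all above 0 and within a narrow band. Its single spots were less alike than these averages. They were at 0.55 and 0.09 on replicate 3, -0.04 and 0.47 on replicate 4, and 0.52 and 0.04 on replicate 1. The mean of 0.25 ± 0.14 (SD, n = 4) had a smaller SD than all but 0.776% of genes. Its limma 95% interval ran from -0.48 to 0.97 and the adjusted p was 0.913, because limma moderates a small SD towards that of other genes. An exact sign-flip test over all 5 arrays gave p = 0.0625, the smallest that 5 arrays allow. On replicates 2 and 5 both RNA14 spots again held 1 value, which a neighbouring spot of KAR5 held too, so 2 of these 4 ratios may not be RNA14's own.

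RNA15 (YGL044C), the shortest of the 10 genes at a coding length of 891 bases, encodes the subunit that contacts RNA through an RNA recognition motif. It was at 1.16, 0.06, -0.82 and -3.50 on replicates 2 to 5 and at 0.53 on replicate 1. The arrays fell on both sides of 0 and spanned the widest range of the 10 genes. The mean was -0.77 ± 1.99 (SD, n = 4), with a limma adjusted p = 0.870, and without replicate 5 it was 0.14. On replicate 5 the gene's spots were far apart, at -5.51 and -1.49, a gap of 4.02 log2 units that was wider than those of 99.3% of genes with 2 spots. On the other 3 arrays the RNA15 spots were 0.05 to 0.45 apart. Several spots printed beside RNA15 were low on that array too: TAF6 was at -5.53, RPL23B at -4.21 and GIP2 at -4.03, while RPT6, PUS6, PCP1, VMA21 and HMF1 lay between -1.11 and -0.76.

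**Figure D2:**
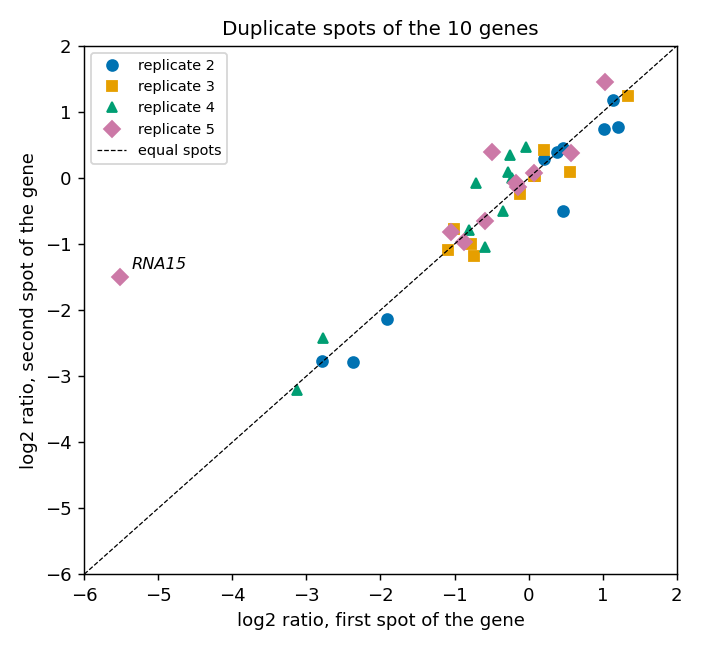
The second spot of each gene (vertical axis, log2 ratio) against its first spot (horizontal axis) on replicates 2 to 5, with a dashed line where they are equal. RNA15 on replicate 5, at -5.51 and -1.49, lies farthest from the line, and YSH1 on replicate 2 and CFT1 on replicate 5 have spots on either side of 0, 0.96 and 0.89 apart.

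CLP1 (YOR250C) encodes a subunit that binds ATP and Pcf11. Its ratios were -2.57, -0.89, -0.79 and -0.13 on replicates 2 to 5, all below 0, with replicate 2 far the lowest. On replicate 1 it was at 0.59, the opposite sign. The mean was -1.09 ± 1.04 (SD, n = 4), with a limma 95% interval from -2.16 to -0.03 and an adjusted p = 0.834. The unadjusted p was no longer under 0.05 without replicate 2 (mean -0.60), without replicate 3 (-1.16), without replicate 4 (-1.20) or with replicate 1 added (-0.76), and with the sign of replicate 2 turned the mean was 0.19. Spots around CLP1 were low on replicates 2 and 3 as well, with medians of -1.25 and -0.73, and its neighbours SEC63, FAA1 and PKH2 were at -2.70, -2.25 and -2.08 on replicate 2. With the local median removed the CLP1 mean was -0.56. On replicate 4 a spot of SPT14 held the same deposited value as a CLP1 spot beside it. On replicate 5 both CLP1 spots held values shared with SPT14 spots beside them, and each gene averaged -0.13. That ratio, 1 of the 4 below 0, may thus not be CLP1's own.

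The 3 genes of the cleavage and polyadenylation factor had means close to 0 and passed no test, but their arrays were not alike. PAP1 (YKR002W) encodes the poly(A) polymerase. It had ratios of 0.25, 0.31, -0.10 and -0.62 on replicates 2 to 5 and -0.25 on replicate 1, on both sides of 0, with a mean of -0.04 ± 0.43 (SD, n = 4) and a limma adjusted p = 0.9898. Its 2 spots on replicate 1 were at -0.88 and 0.37, one on each side of 0.

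CFT1 (YDR301W), the gene of a large subunit that recognises RNA near the cleavage site, was at 0.99, 1.29, -2.598 and -0.05 on replicates 2 to 5 and at 0.16 on replicate 1. Replicates 2 and 3 were high and replicate 4 low, in the same directions as the spots around the gene, whose medians were 0.62, 0.68 and -1.71 there. The mean was -0.09 ± 1.77 (SD, n = 4), with a limma adjusted p = 0.988, and 0.74 without replicate 4. On replicates 3 and 5 a CFT1 spot held the same value as a spot of HNT2 beside it.

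YSH1 (YLR277C) encodes the endonuclease that cuts the transcript. Its ratios were -0.02, -0.96, -0.39 and 1.24 on replicates 2 to 5 and 0.55 on replicate 1, with replicate 5 the highest array. The mean was -0.03 ± 0.93 (SD, n = 4), with a limma adjusted p = 0.993, and changed sign without replicate 3 (0.28) and without replicate 4 (0.087). The spots around YSH1 had medians of -0.96 on replicate 3 and 0.86 on replicate 5, the same sides of 0 as the gene. On replicate 1 its 2 spots were at -0.11 and 1.21.

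The 3 genes of the Nrd1-Nab3-Sen1 complex all had means below 0 but did not move together. NRD1 (YNL251C) encodes the subunit that pairs with Nab3 and binds the polymerase's C-terminal domain. It had ratios of 0.88, -0.89, -0.42 and -0.93 on replicates 2 to 5 and 1.20 on replicate 1. It was thus above 0 on replicates 1 and 2 and below 0 on the other 3 arrays, where its partner NAB3 was below 0 on all 5. Its mean was -0.34 ± 0.85 (SD, n = 4), with a limma adjusted p = 0.913, and ran from -0.75 without replicate 2 to -0.14 without replicate 5. The mean was 0.26 with the local median removed. Spots around NRD1 had a median of -0.92 on replicate 2, where the gene itself was high. Genes printed directly beside it were mixed on that array. PET111, NPR1, MRPL24 and TPS3 were at 0.95, 0.78, 0.68 and 0.28, and CRS1, HPF1, DUF1 and GRE2 at -0.16, -0.45, -0.87 and -1.69.

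NAB3 (YPL190C) was at -2.78, -1.09, -3.17 and -0.92 on replicates 2 to 5 and at -1.80 on replicate 1. All 5 arrays lay below 0, and NAB3 was the lowest of the 10 genes on replicates 1 to 4. The mean was -1.99 ± 1.15 (SD, n = 4), with a moderated standard error of 0.48 and a limma 95% interval from -3.12 to -0.87. Its p ranked 16th among the 5539 genes, but the adjusted p was 0.834. The exact sign-flip test gave p = 0.125 over 4 arrays and p = 0.0625 over 5, each the smallest that number of arrays allows. Neither NAB3 spot held a shared value on any array, and the pair were 0.00 to 0.10 apart, closer than the all-gene medians of 0.18 to 0.32.

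The surroundings of NAB3 differed from array to array. On replicate 4 the gene was at -3.17 where the surrounding spots had a median of -0.16, though RBL2, printed beside it, was at -2.41. On replicate 1 it was at -1.80, and the 10 spots numbered within 5 of it ranged from -0.68 to 0.58. On replicates 2 and 3 the surroundings were also low, with medians of -1.91 and -1.38. On replicate 5 they lay at -3.11, and NAB3 at -0.92 was above them. With the local median removed, the NAB3 mean was -0.35. It was -0.60 with the sign of replicate 2 turned, an array whose deposited median lay on the other side of 0 from those of replicates 3 to 5.

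SEN1 (YLR430W), the longest of the 10 genes at 6696 bases, encodes the helicase that dislodges the polymerase. Its ratios were -2.02, 0.05, 0.05 and 0.47 on replicates 2 to 5 and -0.61 on replicate 1. Replicate 2 was far below the other 3, and the spots around SEN1 were not low on it, with a median of 0.26. The mean of -0.36 ± 1.12 (SD, n = 4), with a limma adjusted p = 0.917, rested on that array and was 0.19 without it.

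**Figure D3:**
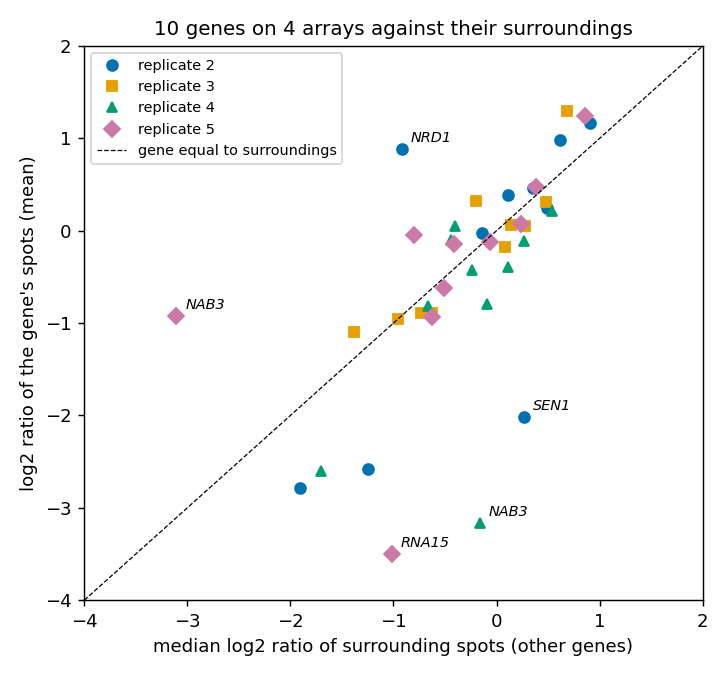
The log2 ratio of each of the 10 genes (vertical axis) against the median of the spots of other genes around it (horizontal axis) on replicates 2 to 5, with a dashed line of equality. Most points follow the line, and named genes differ from their surroundings by more than 1.5 log2 units.

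The ratios mostly had the sign of the spots printed near them. Across the 40 gene and array combinations the ratio had the sign of its surroundings in 33, with Pearson r = 0.61. Both are given as a description because spots of 1 array share its hybridisation. Neither was computed over all genes, so they are not shown to be particular to these 10. Ratios beyond 1 log2 unit in either direction numbered 4, 2, 2 and 2 on replicates 2 to 5, against 38.4, 18.1, 21.4 and 24.9% of all genes. Of these 10 ratios, 9 had the sign of the surrounding spots and 1, SEN1 on replicate 2, had the opposite sign. NAB3 on replicate 4, RNA15 on replicate 5 and SEN1 on replicate 2 lay at -3.0, -2.49 and -2.29 log2 units relative to their surroundings, and NAB3 on replicate 5 at 2.18. The part of slide position in these means was not tested beyond removing the local median. Values identical to a neighbouring spot's were held by 4 of the 10 genes, PCF11, RNA14, CLP1 and CFT1, on 2 arrays each. They made up 20, 5, 5 and 35% of these genes' spots on replicates 2 to 5, against 28.6, 8.07, 14.6 and 37.4% of all spots. In these shares a gene's own other spot counted as a neighbouring spot.

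The balance of the 10 genes around 0 differed from array to array. Their medians were 0.32, -0.06, -0.41 and -0.13 on replicates 2 to 5 and 0.22 on replicate 1. Below 0 were 4, 5, 8 and 7 of them on replicates 2 to 5, against 49.9, 49.4, 48.6 and 50.3% of all genes. On replicate 1 there were 4 below 0, against 52.8% of all genes. The spread between genes of an array was wide, from 2.39 log2 units between lowest and highest on replicate 3 to 4.74 on replicate 5.

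The 25 further genes of the pathway divided evenly around 0. Means below 0 were found for 13 and above 0 for 12, with a median of 0.00. At an unadjusted limma p under 0.05 there were 1 lower gene and 0 higher, against 5.42% of all genes, and 0 passed after adjustment. The 12 other subunits of the cleavage and polyadenylation factor had means from -0.72 to 0.72, with none past the unadjusted threshold. Of these, REF2, which acts at snoRNA 3' ends as well, was at 0.53 ± 0.23 (SD, n = 4), and PFS2, a WD-repeat scaffold gene, at -0.72 ± 0.94. HRP1, the gene of cleavage factor IB, was at 0.00 ± 0.67. Replicate 1 had REF2 at -0.45, PFS2 at 0.14 and HRP1 at 0.17.

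Among genes of the exonuclease route to termination, which degrades the RNA left on the polymerase after cleavage, RAT1 was at -0.42 ± 0.63 and RTT103 at -0.34 ± 0.89 (SD, n = 4), while the third gene, RAI1, was at 0.11 ± 0.77. With an array left out RAT1 ran from -0.72 to -0.24 and RTT103 from -0.69 to -0.037. Replicate 1 had RAT1 at 0.83, RTT103 at -0.05 and RAI1 at -0.43. On replicates 2 and 4 the RTT103 spots held the same value as each other. Whether a spot of another gene held it too was not examined, so 2 of its 4 ratios may not be its own. The poly(A) tail genes PAN3, for a deadenylase subunit, and NAB2, for a nuclear poly(A)-binding protein, were at 0.56 ± 0.51 and 0.46 ± 0.66. Replicate 1 had them at 0.06 and -0.30. Nuclear surveillance genes, whose proteins tail and trim the transcripts that Nrd1-Nab3-Sen1 releases, had 4 of 5 means below 0, against 51.3% of all genes, and 1 of the 5 passed the unadjusted threshold. RRP6, the gene of the nuclear exosome's exonuclease, was at -0.47 ± 0.36, but at 0.78 on replicate 1. The RRP6 mean was -0.22 with replicate 1 added and -0.09 with the local median removed.

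PAP2, which encodes the noncanonical poly(A) polymerase of that pathway, was the gene past the unadjusted threshold. It was at -2.43, -1.19, -0.13 and -3.12 on replicates 2 to 5 and at 0.10 on replicate 1. The 4 tested arrays were all below 0 and replicate 1 was not. The mean was -1.72 ± 1.33 (SD, n = 4) with a limma adjusted p = 0.834, and -1.25 without replicate 5, where the unadjusted p was 0.0508 by limma. With the local median removed the mean was -0.20. The spots around PAP2 had medians of -2.40, -0.88, -0.12 and -2.69 on replicates 2 to 5. PAP2 is printed in block 30 at row 17, columns 11 and 12, and NAB3 in that block at row 19, columns 9 and 10. Each thus lies within the local window of the other, so their low ratios are not separate in slide position.

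NAB3, the gene of largest mean in either direction among the 10, was set against all other genes by Euclidean distance between ratios on the 4 arrays. The nearest profiles were those of SPT8, a SAGA subunit gene, at a distance of 0.52 log2 units, RPL1A at 0.64 and RPL1B at 0.77. The last 2 are near-identical ribosomal protein genes whose spots can bind the same cDNA, so they are not separate matches. On replicate 1, which the distance did not use, NAB3 was at -1.80, SPT8 at 0.05, RPL1A at -1.25 and RPL1B at -1.24. The spots of these genes lie in blocks 30, 31, 9 and 26 of the 32 blocks of the slide, so none shares a block with NAB3.

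**Figure D4:**
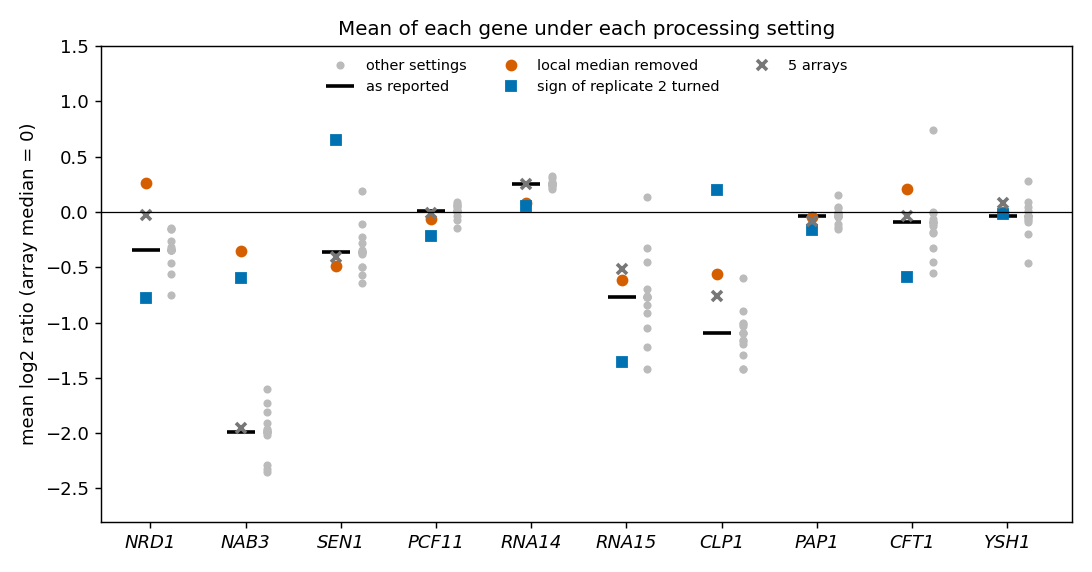
The mean log2 ratio of each gene (vertical axis) as reported and under each alternative setting, with the local median removed, the sign of replicate 2 turned and all 5 arrays marked apart from the others. NAB3 keeps a mean below 0 throughout, from -2.35 to -0.35, and RNA14 a mean above 0 in each setting that fitted it, while the other 8 genes have means on both sides of 0.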

How the data were processed

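The authors deposited 1 log10 ratio per spot. No source states the scale, which was inferred: read as log10, 1.95 to 19.95% of 2000 spots drawn per array gave quotients of whole numbers no larger than 3000, to 1.2e-09 log units, against at most 0.65% with base 2 or e. The authors' scanner, background correction and normalization were not given, and with ratios alone signal over background could not be assessed. Ratios were put on the log2 scale, centred on each array's median and averaged per gene. Gene names came from the platform annotation and the RefSeq table of assembly R64 (5534 of 5539 matched). BAP3, which has PAP1 as a synonym, was not counted as PAP1. No coordinates are given, since no build is named.

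The 4 arrays of 1 platform were tested with limma 3.58.1 in R 4.3.3 (lmFit and eBayes against 0, two-sided, at least 3 arrays per gene, Benjamini-Hochberg over all genes, threshold 0.05). The script was tested on these ratios shuffled across genes within each array, with known changes added to some genes. Shuffling removes any pattern of slide position, so that test did not cover it. Local medians used the spots up to 2 rows and columns away in the same block of 20 by 20, without the gene's own. The named genes are the 10, up to 2 genes of smallest p in each of 5 further pathway groups, and the 3 nearest profiles; neighbours on the slide were named as a position check, and those given were chosen after their values were seen. The 10 genes and the pathway list were chosen with earlier results of these data known. Precision is limited by the number of arrays.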

Additional observations from a re-analysis of the deposited data

Results flagged for a closer look

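In 2 of the 10 genes a single array stood apart from the other 3 of its platform by a gap test at the 95% level, which by chance marks about 1 group in 20 and marked 6.61% of all 5539 genes here. PCF11 on replicate 2 was at 0.46, against -0.18 to -0.11 on replicates 3 to 5, a gap of 0.892 of the whole range, and both of its spots held a value identical to a neighbouring spot's there. SEN1 on replicate 2 was at -2.02, against 0.05 to 0.47 on replicates 3 to 5, a gap of 0.830 of the range, just past the critical value, with its spots at -1.91 and -2.13.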

How the results depend on the processing

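Alternatives changed the handling of slide position and of shared values, the sign of replicate 2, scaling, centring, the summary of spots, the handling of replicates 3 and 5, whose titles carry the same code, the platform added, array weights, moderation and the number of values needed, and left out each array. Using 1 spot of a gene was added after seeing the data. Genes past adjustment numbered 0 in every setting run, where 4.17 to 6.63% of genes passed an unadjusted 0.05. Of the 10 genes, 2 passed that threshold as reported, 0 with the local median removed, 1 with 5 arrays and 1 to 2 with an array left out; with replicate 2 turned the 2 were RNA15 and NRD1 instead of NAB3 and CLP1. NAB3 passed in 16 of 18 settings and CLP1 in 12. The 18 count the reported fit itself, and some settings, such as the median of spots and values on all 4 arrays, left both means as they were. Of the further pathway genes 1 passed, and 0 to 2 with an array left out; it was SWD2 with the local median removed and GLC7 with replicate 2 turned, both named after their values were seen. The median of the 10 means, -0.22 as reported, was -0.053 with the local median removed and -0.061 with 5 arrays, and ran from -0.33 to -0.13 with an array left out.

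Signs turned as follows. With the local median removed, PCF11 was at -0.063, CFT1 at 0.21 and NRD1 at 0.26. With replicate 2 turned, PCF11 was at -0.22, CLP1 at 0.19, SEN1 at 0.65 and HRP1 at -0.34. With arrays scaled, PCF11 was at -0.034 and HRP1 at -0.077. With array weights, they were at -0.073 and -0.18. With 5 arrays, PCF11 was at -0.0058 and YSH1 at 0.083. Centred on the mean, PAP1 was at 0.040 and YSH1 at 0.046. With the first spot alone, PCF11 was at -0.00505 and YSH1 at 0.0097, and with the second alone, PAP1 was at 0.035 and HRP1 at -0.00012. Leaving out an array gave -0.14 to 0.069 for PCF11, -0.64 to 0.19 for SEN1, -0.46 to 0.28 for YSH1, -0.55 to 0.74 for CFT1, -1.42 to 0.14 for RNA15, -0.16 to 0.15 for PAP1 and -0.22 to 0.26 for HRP1. The causes were not tested. With shared values left out, PCF11, RNA14 and RTT103 had values on fewer than 3 arrays and were not fitted. Each ratio already pairs the 2 precipitates on its array, and no further pairing between arrays was possible because there is 1 group. With 4 arrays the limma 95% intervals of the 10 means reached 0.72 to 1.66 log2 units to either side.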
